A study of Homo sapiens with 24 samples.

Results

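The sarcomere is the contractile unit of heart muscle, and the 41 genes described here code for its scaffold rather than its motor. They are titin, thin filament genes, thick filament and M-band genes, Z-disc genes, intermediate filament and stress sensor genes, assembly chaperones, and genes of sarcomere protein turnover. Members were taken by symbol from the 62757 genes of the deposited table, and myosins and troponins were left out. All 41 members were found, and 38 had enough counts to be tested.

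The cells came from HES3, an established human embryonic stem cell line that carried reporters at NKX2-5 (GFP) and NR2F2 (mCherry) in every group. They were differentiated to cardiac cells as embryoid bodies with Wnt-modulating protocols for up to 14 days. The 24 libraries form 8 groups of 3. In each group a CRISPR-Cas9 knockout label names TRAC (a T cell receptor gene, used as the control target), LHX2, ZNF503 or ZNF711. Each target was grown in 2 conditions: AM, read here as the atrial condition with retinoic acid given on day 4, and VM, read here as the ventricular condition without it. The labels call every group cardiomyocytes and do not say whether cells were sorted, whether a knockout was 1 clone, or what a replicate was, so p-values measure only the spread between these samples. Library totals ranged from 2899786 to 7438010 counts.

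Titin reaches from Z-disc to M-band and acts as its spring and ruler. Actin thin filaments are anchored in the Z-disc, where alpha-actinin crosslinks them and many smaller proteins bind. Myosin thick filaments are held in register at the M-band by myomesins. Many of these genes are known targets of serum response factor, which binds the CArG box, and of MEF2 factors.

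Sequence at the start sites shows both sites in some of the members that carry the results below. RefSeq promoters (GRCh38.p14) were matched for 34 of the 41 members, and the 250 bases before each start were searched on both strands. A CArG box was present in 5 of the 34 (14.7%), against 312 of all 27305 promoters (1.14%). A MEF2 site was present in 9 of the 34 (26.5%), against 791 of all promoters (2.9%). The windows below run 5′ to 3′ on the strand of the gene, with the motif in capitals. They are shown for each member with a match that was called between the conditions in at least 1 target, and for TTN and MYBPC3, whose levels are described below. The matches in ACTA1, KLHL41 and MYOM3 are not printed. A match is a description of the letters and not evidence of binding.
ACTC1 CArG box, chr15:34795609-34795698, minus strand: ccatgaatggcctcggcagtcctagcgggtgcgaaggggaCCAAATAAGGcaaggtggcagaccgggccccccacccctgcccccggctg
LDB3 CArG box, chr10:86668414-86668503, plus strand: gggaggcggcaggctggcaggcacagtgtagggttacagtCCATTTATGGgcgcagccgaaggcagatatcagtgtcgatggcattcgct
MYOM1 CArG box, chr18:3219969-3220040, minus strand: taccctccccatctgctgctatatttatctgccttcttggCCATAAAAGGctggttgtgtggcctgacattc
FHL2 CArG box, chr2:105438565-105438654, minus strand: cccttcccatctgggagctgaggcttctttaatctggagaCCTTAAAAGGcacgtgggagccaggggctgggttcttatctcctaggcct
FHL2 MEF2 site, chr2:105438514-105438584, minus strand: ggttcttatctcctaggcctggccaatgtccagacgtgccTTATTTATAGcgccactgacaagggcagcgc
MYOZ2 MEF2 site, chr4:119135740-119135829, plus strand: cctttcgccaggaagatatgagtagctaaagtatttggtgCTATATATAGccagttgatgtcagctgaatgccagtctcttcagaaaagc
HSPB7 MEF2 site, chr1:16018076-16018165, minus strand: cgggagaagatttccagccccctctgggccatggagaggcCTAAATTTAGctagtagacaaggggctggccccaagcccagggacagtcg
XIRP1 MEF2 site, chr3:39192657-39192746, minus strand: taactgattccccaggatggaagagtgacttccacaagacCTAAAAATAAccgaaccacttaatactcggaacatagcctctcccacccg
SYNPO2L MEF2 site, chr10:73656144-73656233, minus strand: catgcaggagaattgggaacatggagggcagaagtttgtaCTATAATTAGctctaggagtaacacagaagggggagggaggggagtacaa
MYBPC3 MEF2 site, chr11:47352747-47352836, minus strand: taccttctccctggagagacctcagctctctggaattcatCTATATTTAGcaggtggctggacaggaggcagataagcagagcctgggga
TTN MEF2 site, chr2:178807541-178807630, minus strand: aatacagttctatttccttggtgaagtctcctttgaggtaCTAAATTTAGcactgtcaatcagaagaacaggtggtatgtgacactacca

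Levels are given as CPM, a gene's share of its library's counts on a fixed scale, adjusted by the trimmed mean of M values, in the order of replicates 1, 2 and 3. A member is called where edgeR's quasi-likelihood test gave an adjusted p below 0.05 over all 17724 genes tested. That fit has no replicate block, although same-numbered replicates deviated together. The members together held 1.39% to 4.21% of all counts, and TTN alone 0.51% to 2.79%. In bulk RNA, fewer cells of a type and less RNA per cell cannot be told apart. Cardiac muscle genes outside the members were present in every library: a sum over 8 of them (TNNT2, TNNC1, TNNI1, RYR2, TRDN, CASQ2, SLC8A1 and TECRL) ranged from 1650 to 4718 CPM. Skeletal muscle regulators were low, with MYOD1 at most 0.61 CPM, MYF5 at most 0.49, MYF6 at most 1.20, PAX7 at most 3.75 and MYOG at most 4.41. The whole list of 12 skeletal muscle markers summed to 21.9 to 80.7 CPM in AM and 89.6 to 199.5 CPM in VM libraries. CKM, a muscle creatine kinase, held most of that sum. It averaged 28.2 of 37.2 CPM in AM TRAC and 133 of 143 CPM in VM TRAC.

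The targeted genes' own RNA did not check the labels. In libraries labelled ZNF503, the RNA of that gene had a higher mean than in the controls, at 295.9 ± 60.6 CPM against 111.9 ± 9.8 in AM TRAC, and at 35.6 ± 14.3 against 13.2 ± 3.91 in VM TRAC (SD, n = 3). ZNF711 RNA averaged 42.6 ± 12.3 CPM in the AM libraries labelled ZNF711 against 54.2 ± 6.48 in AM TRAC, and 30.8 ± 4.31 against 39.9 ± 6.96 in VM. LHX2 was at most 6.89 CPM and TRAC at most 3.45 CPM in any library. Frameshifting edits need not lower the level of an RNA.

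The VM replicate 3 libraries stood apart. A sum over 10 endoderm markers was 2889, 2634 and 20799 CPM in VM for TRAC, 1834, 1333 and 7760.4 for LHX2, 2247, 2293 and 14075 for ZNF503 and 7911, 15599 and 22082 for ZNF711, against at most 2159 in any AM library. Within VM, replicate 3 had lower values than the mean of replicates 1 and 2 for 25 of the 38 tested members in TRAC, 31 in LHX2, 28 in ZNF503 and 25 in ZNF711. Counts of called members are therefore also given without replicate 3 in every group.

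**Figure D1:**
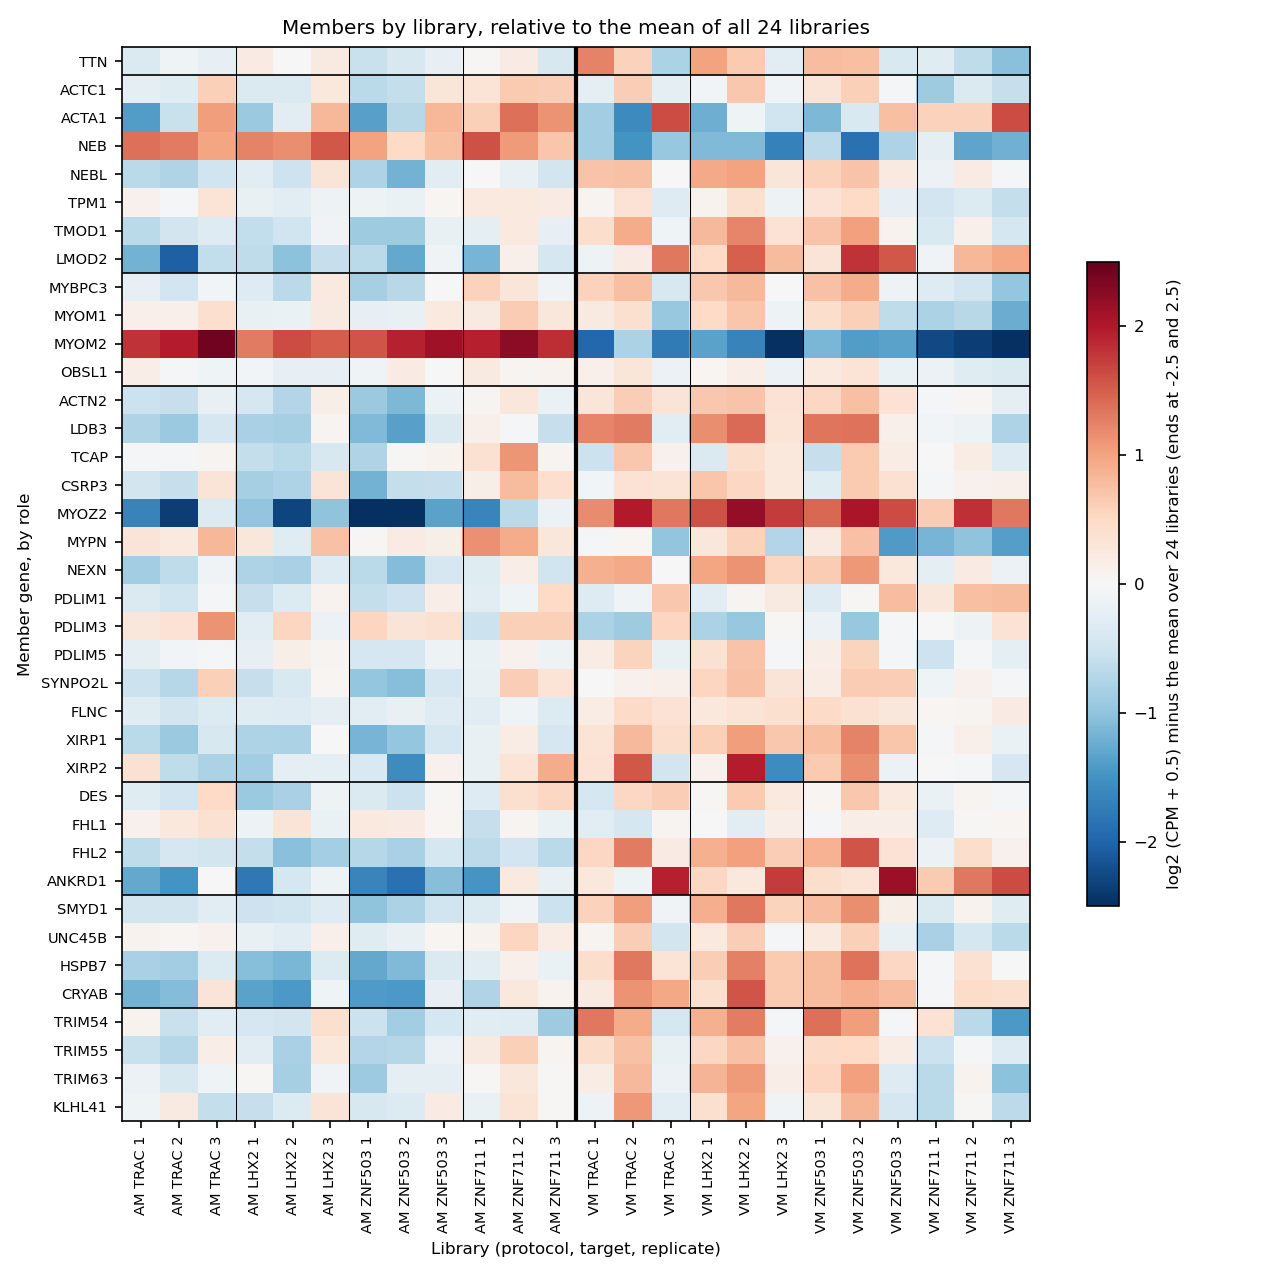
Heat map of the 38 tested members (rows, by role) in all 24 libraries (columns, by protocol, target and replicate). Color is log2 (CPM + 0.5) minus the gene's mean over the 24 libraries, with the scale ending at -2.5 and 2.5. MYOM2 and NEB are high across AM, MYOZ2 is high across VM, and ANKRD1 is highest in VM replicate 3 libraries.

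Most members that differed between the conditions were lower in AM in the TRAC controls, while 2 were higher. MYOM2 and NEB rose, and 12 members fell: MYOZ2, LMOD2, LDB3, HSPB7, FHL2, XIRP1, NEXN, NEBL, SMYD1, TMOD1, ACTN2 and FLNC. Thus 14 of 38 members were called, where 11.3% of all genes tested were called (6.18% higher and 5.12% lower). The members' median log2 fold change was -0.60, against -0.03 over all genes. By role, 6 of 14 Z-disc members fell, 3 of 7 thin filament members fell and NEB rose, and 2 of 4 assembly chaperones fell. For the calls in the other targets, the share of all genes called between AM and VM was 8.56% in LHX2, 8.86% in ZNF503 and 13.2% in ZNF711. The tests of whether these differences departed from that in TRAC called no member, so a call in 1 target and not in another is not shown to be a difference between them.

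MYOM2 had the largest difference of the members in TRAC, while the other 3 tested thick filament and M-band members were not called there. MYOM2, a myomesin that crosslinks thick filaments and lies on chromosome 8 at 2045040 to 2165552 of GRCh38 (plus strand), was far higher in every AM library. MYOM2 in AM stood at 28.6, 31.9 and 43.6 CPM for TRAC, 19.8, 25.2 and 23.3 for LHX2, 24.3, 31.0 and 35.3 for ZNF503 and 31.4, 38.5 and 29.3 for ZNF711. Across VM, MYOM2 was measured at 1.63, 4.32 and 1.93 CPM for TRAC, 2.81, 2.12 and 0.798 for LHX2, 3.27, 2.65 and 2.78 for ZNF503 and 1.23, 1.13 and 0.208 for ZNF711. The 12 AM libraries did not overlap the 12 VM libraries. Of all 41 members, 2 (MYOM2 and NEB) were apart in this way with AM higher. Another 3 (MYOZ2, FLNC and FHL2) were apart with VM higher, and 36 overlapped. The share of all genes apart over 12 and 12 libraries is not given. Within 1 target, with 3 libraries on each side, 23.5% to 32.9% of all genes tested were apart. In TRAC the fitted difference was a log2 fold change of 3.73 ± 0.36 (SE), edgeR adjusted p = 6.98e-08. It was 3.56 ± 0.38 (edgeR adjusted p = 4.66e-07) in LHX2, 3.37 ± 0.36 (edgeR adjusted p = 4.06e-07) in ZNF503 and 5.25 ± 0.42 (edgeR adjusted p = 5.73e-09) in ZNF711, where the VM libraries held only 5, 6 and 1 counts. The paralog MYOM1 carried most myomesin RNA, so that MYOM2 per exon length was 3.88% to 6.84% of MYOM1 in AM (median 5.33%) and 0.095% to 0.84% in VM (median 0.37%).

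MYOM1 itself did not follow MYOM2. MYOM1 in AM stood at 526, 522 and 644 CPM for TRAC, 420.4, 425 and 558 for LHX2, 413, 422 and 566 for ZNF503 and 562, 745 and 585 for ZNF711. Values of MYOM1 in VM were 559, 635 and 249 CPM for TRAC, 675, 779 and 439.8 for LHX2, 654, 722 and 309 for ZNF503 and 276, 298 and 203 for ZNF711. It was called only in ZNF711, where AM was higher (a log2 fold change of 1.28 ± 0.31 (SE), edgeR adjusted p = 0.00815). MYOM3, another myomesin, better known from skeletal muscle, was too low to test, with at most 12 counts in a library. MYOM3 in AM stood at 0.900, 1.87 and 0.726 CPM for TRAC, 0.958, 0 and 0.758 for LHX2, 1.31, 0.912 and 0.925 for ZNF503 and 1.83, 1.81 and 0.778 for ZNF711. For MYOM3, the VM libraries gave 0, 1.03 and 0.446 CPM for TRAC, 0.374, 2.54 and 0.997 for LHX2, 0.701, 0.204 and 1.71 for ZNF503 and 0, 0 and 0 for ZNF711. MYBPC1, the slow skeletal myosin binding protein C, was lower still, with 11 counts over all libraries, and was at 0 in all but 5 libraries. MYBPC1 in AM stood at 0.540, 0.311 and 0 CPM for TRAC, 0, 0 and 0 for LHX2, 0, 0 and 0 for ZNF503 and 0, 0.201 and 0 for ZNF711. For MYBPC1, the VM libraries gave 0, 0 and 0 CPM for TRAC, 0, 0.424 and 0.598 for LHX2, 0, 0 and 0 for ZNF503 and 0, 0 and 0 for ZNF711.

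MYBPC3, the cardiac myosin binding protein C, was not called in any of the 4 protocol comparisons. MYBPC3 in AM stood at 401, 333 and 441 CPM for TRAC, 372, 292 and 549 for LHX2, 260.4, 286 and 465 for ZNF503 and 693, 572 and 436 for ZNF711. In VM, MYBPC3 was at 689, 781 and 349.6 CPM for TRAC, 739, 813 and 468 for LHX2, 773, 884 and 426 for ZNF503 and 369, 337 and 237 for ZNF711. VM replicate 3 was the lowest of its group in all 4 targets. In TRAC the fitted value was a log2 fold change of -0.63 ± 0.33 (SE), edgeR adjusted p = 0.251, and without replicate 3 of every group it was -1.0 with an edgeR adjusted p of 0.000525. OBSL1, an obscurin relative, ranged only from 357 to 581 CPM over all libraries and was called nowhere.

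Thin filament members split. NEB, which codes for nebulin, a giant protein along the thin filament of skeletal muscle, was low but higher in AM, and its heart relative NEBL (nebulette) was higher in VM. NEB in AM stood at 27.2, 25.7 and 20.5 CPM for TRAC, 24.6, 23.4 and 30.9 for LHX2, 21.0, 14.6 and 17.6 for ZNF503 and 31.8, 21.7 and 16.9 for ZNF711. For NEB, the VM libraries gave 5.30, 3.29 and 5.05 CPM for TRAC, 4.49, 4.45 and 2.79 for LHX2, 6.30, 2.44 and 5.78 for ZNF503 and 8.62, 3.75 and 4.17 for ZNF711. No VM library reached the lowest AM library. In TRAC the difference was a log2 fold change of 2.41 ± 0.34 (SE), edgeR adjusted p = 2.66e-05, and it was called in all 4 targets. NEB exons overlap RIF1 on the other strand, RIF1 held 934% of NEB's counts, and the strand setting is not given in the sources used here. RIF1 itself was not called between AM and VM in any target, with log2 fold changes from -0.24 to 0.33.

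NEBL was the far more abundant of the pair. NEBL in AM stood at 375, 356 and 428 CPM for TRAC, 499, 417 and 746 for LHX2, 349.9, 264 and 497 for ZNF503 and 597, 529.6 and 439 for ZNF711. NEBL in VM was 979.6, 1004 and 606 CPM for TRAC, 1164, 1214 and 743 for LHX2, 900.4, 980.2 and 702 for ZNF503 and 545, 688 and 589 for ZNF711. Its difference in TRAC was a log2 fold change of -1.16 ± 0.24 (SE), edgeR adjusted p = 0.00215, and it was also called lower in AM in LHX2 and ZNF503. NEB per exon length was 1.58% to 3.24% of NEBL in AM and 0.111% to 0.706% in VM, and these ranges did not overlap.

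ACTC1, the cardiac alpha-actin, was the most abundant member per exon length. In TRAC it stood at 468.7 ± 172 CPM per kilobase in AM and 479.1 ± 175 in VM (SD, n = 3). ACTC1 in AM stood at 1746, 1653 and 3071 CPM for TRAC, 1589.8, 1581 and 2449 for LHX2, 1283, 1341 and 2521 for ZNF503 and 2602, 3231 and 3143 for ZNF711. Across VM, ACTC1 was measured at 1753, 3136 and 1725 CPM for TRAC, 1936, 3277 and 1923 for LHX2, 2555, 3099 and 1985 for ZNF503 and 1099, 1593 and 1369 for ZNF711. It was not called in TRAC, LHX2 or ZNF503, and was called higher in AM in ZNF711 (a log2 fold change of 1.14 ± 0.31 (SE), edgeR adjusted p = 0.0152). ACTA1, the skeletal alpha-actin, was low and uneven. ACTA1 in AM stood at 1.26, 2.64 and 9.08 CPM for TRAC, 1.92, 3.35 and 7.77 for LHX2, 1.31, 2.37 and 7.77 for ZNF503 and 6.52, 11.4 and 9.60 for ZNF711. In VM, ACTA1 was at 2.04, 1.03 and 13.8 CPM for TRAC, 1.5, 3.81 and 2.79 for LHX2, 1.63, 3.05 and 7.28 for ZNF503 and 6.40, 6.38 and 13.7 for ZNF711. ACTA1 and ACTC1 code for near-identical proteins. Whether any reads were split between the 2 genes was not tested, and the low ACTA1 values are uncertain.

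Thin filament length and capping genes also fell in AM. TMOD1 (tropomodulin, which caps the pointed end) was called lower in AM in TRAC, LHX2 and ZNF503, and LMOD2 (leiomodin, which elongates the filament) was called in the same 3 targets at low counts. LMOD2 in AM stood at 1.80, 0.778 and 2.91 CPM for TRAC, 2.87, 2.06 and 3.03 for LHX2, 2.79, 1.64 and 4.44 for ZNF503 and 1.83, 5.22 and 3.37 for ZNF711. In VM, LMOD2 was at 4.28, 5.55 and 12.5 CPM for TRAC, 6.92, 14.2 and 8.58 for LHX2, 6.07, 17.7 and 14.8 for ZNF503 and 4.43, 8.81 and 9.79 for ZNF711. The fitted difference of LMOD2 in TRAC was a log2 fold change of -2.04 ± 0.55 (SE), edgeR adjusted p = 0.0147. With a replicate block within each protocol the call was lost in TRAC (-1.49, edgeR adjusted p = 0.0595) and in LHX2 (-1.37, edgeR adjusted p = 0.0957). TMOD1 overlaps TSTD2 on the other strand, which held 24.9% as many counts. LMOD3 was at 0 in most libraries and was not tested. TPM1, the main cardiac tropomyosin, was called only in ZNF711 (a log2 fold change of 0.70 ± 0.19 (SE), edgeR adjusted p = 0.0134).

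Of the 14 Z-disc members, 6 fell in AM in TRAC. MYOZ2, which codes for calsarcin, a calcineurin-binding Z-disc protein, showed the largest fall and was the only member called lower in AM in all 4 targets. MYOZ2 in AM stood at 5.76, 3.42 and 15.3 CPM for TRAC, 9.58, 3.60 and 9.47 for LHX2, 1.64, 1.64 and 7.4 for ZNF503 and 5.91, 12 and 17.6 for ZNF711. In VM, MYOZ2 was at 44.7, 78.3 and 49.2 CPM for TRAC, 59.9, 90.9 and 66.4 for LHX2, 53.9, 82.2 and 61.9 for ZNF503 and 30.8, 70.9 and 49.6 for ZNF711. No AM library reached the lowest VM library. The fitted differences were a log2 fold change of -2.83 ± 0.54 (SE), edgeR adjusted p = 0.00155 in TRAC, -3.25 ± 0.56 (edgeR adjusted p = 0.000734) in LHX2, -4.22 ± 0.59 (edgeR adjusted p = 8.42e-05) in ZNF503 and -2.11 ± 0.53 (edgeR adjusted p = 0.0119) in ZNF711.

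ACTN2, the alpha-actinin that crosslinks actin in the Z-disc, was lower in AM in 3 targets. ACTN2 in AM stood at 363, 353 and 465 CPM for TRAC, 392, 317 and 583 for LHX2, 279, 243 and 477 for ZNF503 and 555, 647 and 472 for ZNF711. ACTN2 in VM was 657, 806 and 658 CPM for TRAC, 850.4, 868 and 676 for LHX2, 754, 892 and 676 for ZNF503 and 515, 539.9 and 452 for ZNF711. The TRAC difference was a log2 fold change of -0.85 ± 0.22 (SE), edgeR adjusted p = 0.0121, and in ZNF711 the groups overlapped. LDB3 (cypher, which binds alpha-actinin) followed a like order but dropped in VM replicate 3. LDB3 in AM stood at 156, 139 and 197 CPM for TRAC, 150.5, 148 and 276 for LHX2, 124, 103 and 206 for ZNF503 and 289, 258 and 178 for ZNF711. Values of LDB3 in VM were 619, 651 and 217 CPM for TRAC, 596, 709.8 and 338 for LHX2, 669, 677 and 288 for ZNF503 and 252, 243 and 155 for ZNF711. Its TRAC difference was a log2 fold change of -1.60 ± 0.43 (SE), edgeR adjusted p = 0.0202. MYPN (myopalladin, which binds nebulin and alpha-actinin) was called only in ZNF711, higher in AM. MYPN in AM stood at 27.5, 26.1 and 39.6 CPM for TRAC, 26.8, 17.8 and 36.9 for LHX2, 22.5, 25.5 and 24.4 for ZNF503 and 49.3, 42.0 and 26.7 for ZNF711. MYPN in VM was 21.4, 22.6 and 10.8 CPM for TRAC, 26.9, 32.8 and 13.0 for LHX2, 25.7, 36.6 and 7.92 for ZNF503 and 9.60, 10.7 and 8.12 for ZNF711. That difference was a log2 fold change of 2.05 ± 0.43 (SE), edgeR adjusted p = 0.00285.

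FLNC (filamin C) had a small but even difference, from a log2 fold change of -0.72 ± 0.13 (SE), edgeR adjusted p = 0.000404 in TRAC to -0.34 ± 0.13 (edgeR adjusted p = 0.0821) in ZNF711, where it was not called but was with a replicate block (-0.34, edgeR adjusted p = 0.00937). XIRP1, a repair-associated actin binder, and NEXN (nexilin) were called lower in AM in TRAC, LHX2 and ZNF503. SYNPO2L and CSRP3 were called only in ZNF503. TCAP, PDLIM1, PDLIM3, PDLIM5 and XIRP2 were called in no target.

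**Figure D2:**
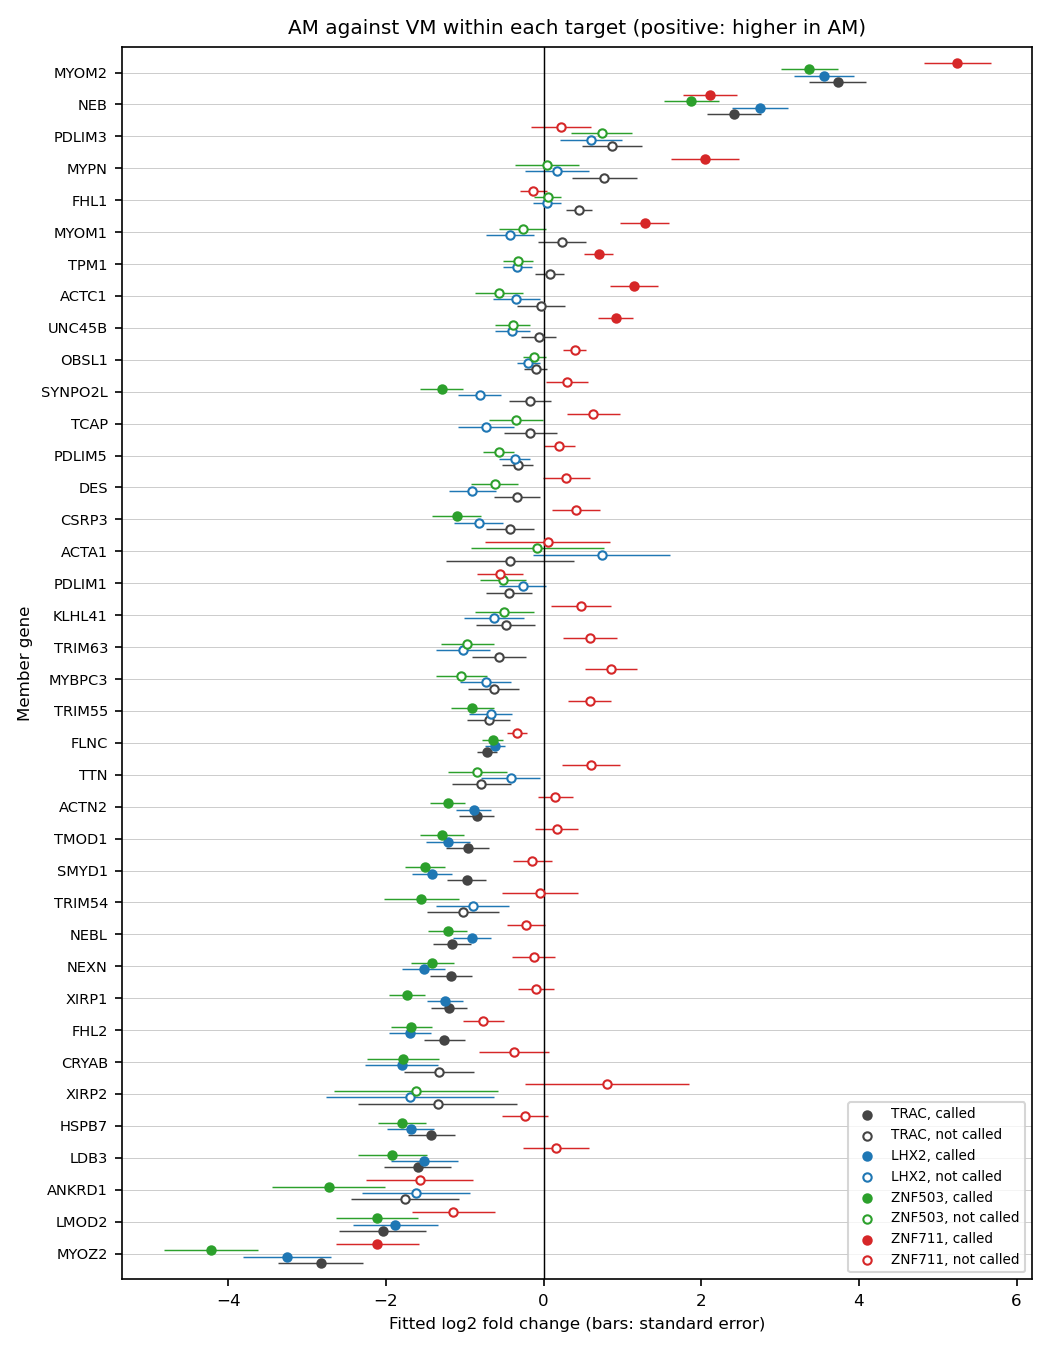
Fitted log2 fold change of AM against VM (horizontal axis, bars: standard error) for each tested member (vertical axis, ordered by the TRAC value), with 1 color per target. Filled points were called by edgeR and open points were not. MYOM2 and NEB lie right of 0 and MYOZ2 left of 0 in all 4 targets, and most ZNF711 points lie to the right of the other targets.

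Intermediate filament and stress sensor genes differed among themselves. DES (desmin, the muscle intermediate filament) was called in no target. DES in AM stood at 70.2, 62.5 and 123 CPM for TRAC, 45.4, 49.2 and 79.9 for LHX2, 68.1, 60 and 88.8 for ZNF503 and 69.9, 116 and 125 for ZNF711. In VM, DES was at 64.4, 125 and 133 CPM for TRAC, 88.7, 137 and 103 for LHX2, 90.6, 139.6 and 103 for ZNF503 and 77.3, 91.5 and 85.0 for ZNF711. FHL2, a LIM protein that binds titin, was higher in every VM library than in any AM library. FHL2 in AM stood at 32.4, 37.5 and 36.5 CPM for TRAC, 33.2, 24.2 and 27.8 for LHX2, 30.5, 28.6 and 37.0 for ZNF503 and 31.8, 36.1 and 31.6 for ZNF711. For FHL2, the VM libraries gave 72.2, 125 and 58.2 CPM for TRAC, 94.3, 103 and 77.8 for LHX2, 92.5, 150.2 and 64.7 for ZNF503 and 45.5, 69.0 and 54.6 for ZNF711. It was called in TRAC (a log2 fold change of -1.26 ± 0.26 (SE), edgeR adjusted p = 0.00177), LHX2 and ZNF503 and was not called in ZNF711 (-0.77 ± 0.26, edgeR adjusted p = 0.0533). A replicate block gave a call there (-0.76, edgeR adjusted p = 0.0206). FHL1 was called nowhere, and FHL1 per exon length was 216% to 528% of FHL2 in AM and 60.5% to 194% in VM.

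ANKRD1 (CARP, a stress-responsive partner of titin) was highest in the VM replicate 3 libraries. ANKRD1 in AM stood at 43.0, 37.0 and 105 CPM for TRAC, 30.0, 76.7 and 96.0 for LHX2, 33.0, 28.3 and 49.8 for ZNF503 and 37.5, 123 and 91.6 for ZNF711. Across VM, ANKRD1 was measured at 125, 95.2 and 402 CPM for TRAC, 150.4, 126 and 351 for LHX2, 142, 134 and 460.4 for ZNF503 and 164, 261 and 324 for ZNF711. It was called lower in AM only in ZNF503 (a log2 fold change of -2.73 ± 0.71 (SE), edgeR adjusted p = 0.0223). In TRAC it was -1.75 ± 0.69 (edgeR adjusted p = 0.118), and with a replicate block it was called at -1.67 (edgeR adjusted p = 0.0112).

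Of the 4 assembly chaperones, 2 fell in AM in TRAC (11.3% of all genes called), 3 in LHX2 (8.56%) and 3 in ZNF503 (8.86%), and 1 rose in ZNF711 (13.2%). HSPB7, a cardiac small heat shock protein, and SMYD1, a methyltransferase that binds myosin during assembly, were called in TRAC, LHX2 and ZNF503. HSPB7 stood at 393 ± 82.2 CPM in AM TRAC and 1053 ± 418 (SD, n = 3) in VM TRAC (a log2 fold change of -1.42 ± 0.30 (SE), edgeR adjusted p = 0.00254). CRYAB (alpha-B crystallin, which protects desmin and titin) was called in LHX2 and ZNF503. CRYAB in AM stood at 6.84, 7.31 and 20.3 CPM for TRAC, 6.07, 5.66 and 15.0 for LHX2, 5.74, 5.65 and 13.9 for ZNF503 and 9.37, 19.5 and 17.1 for ZNF711. CRYAB in VM was 18.8, 35.8 and 31.9 CPM for TRAC, 21.3, 49.1 and 25.5 for LHX2, 28.0, 30.5 and 28.3 for ZNF503 and 15.8, 22.3 and 21.2 for ZNF711. In TRAC it was -1.33 ± 0.44 (edgeR adjusted p = 0.0552), and called at -1.37 with a replicate block (edgeR adjusted p = 0.00598). UNC45B, the myosin chaperone, was called only in ZNF711, higher in AM (a log2 fold change of 0.91 ± 0.22 (SE), edgeR adjusted p = 0.00713).

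Of the 4 turnover genes, 2 were called in ZNF503 (8.86% of all genes called) and 0 in each of the other targets. Both calls were lost in several fits without 1 library, as given below. The medians were -0.94 in ZNF503, -0.63 in TRAC, -0.79 in LHX2 and 0.53 in ZNF711. In ZNF503, TRIM54 (a log2 fold change of -1.55 ± 0.47 (SE), edgeR adjusted p = 0.0413) and TRIM55 (-0.91 ± 0.27, edgeR adjusted p = 0.0407), muscle RING-finger proteins of the sarcomere, were lower in AM. The TRIM55 call was lost with a replicate block (-0.91, edgeR adjusted p = 0.0688). TRIM63 (MuRF1, an E3 ligase of atrophy) and KLHL41 were called in no target.

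Titin was not called between the conditions in any target. TTN lies on chromosome 2 at 178525989 to 178830802 of GRCh38 (minus strand), and CCDC141, whose exons overlap it on the same strand, held 2.02% as many counts. TTN in AM stood at 8862, 10539.5 and 9865 CPM for TRAC, 13129, 11385 and 13266 for LHX2, 7796, 8691 and 9949 for ZNF503 and 11649, 13208 and 8600.1 for ZNF711. Values of TTN in VM were 26906, 17086 and 6586 CPM for TRAC, 23051, 17889 and 9559.7 for LHX2, 19401, 19101 and 8796 for ZNF503 and 9205, 7329.7 and 5554 for ZNF711. VM replicates 1 and 2 of TRAC, LHX2 and ZNF503 were above all AM libraries, and the replicate 3 libraries were not. The TRAC difference was a log2 fold change of -0.79 ± 0.37 (SE), edgeR adjusted p = 0.196. Without VM TRAC replicate 3 it was -1.17 (edgeR adjusted p = 0.019), and with a replicate block within each protocol -1.19 (edgeR adjusted p = 0.00704).

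**Figure D3:**
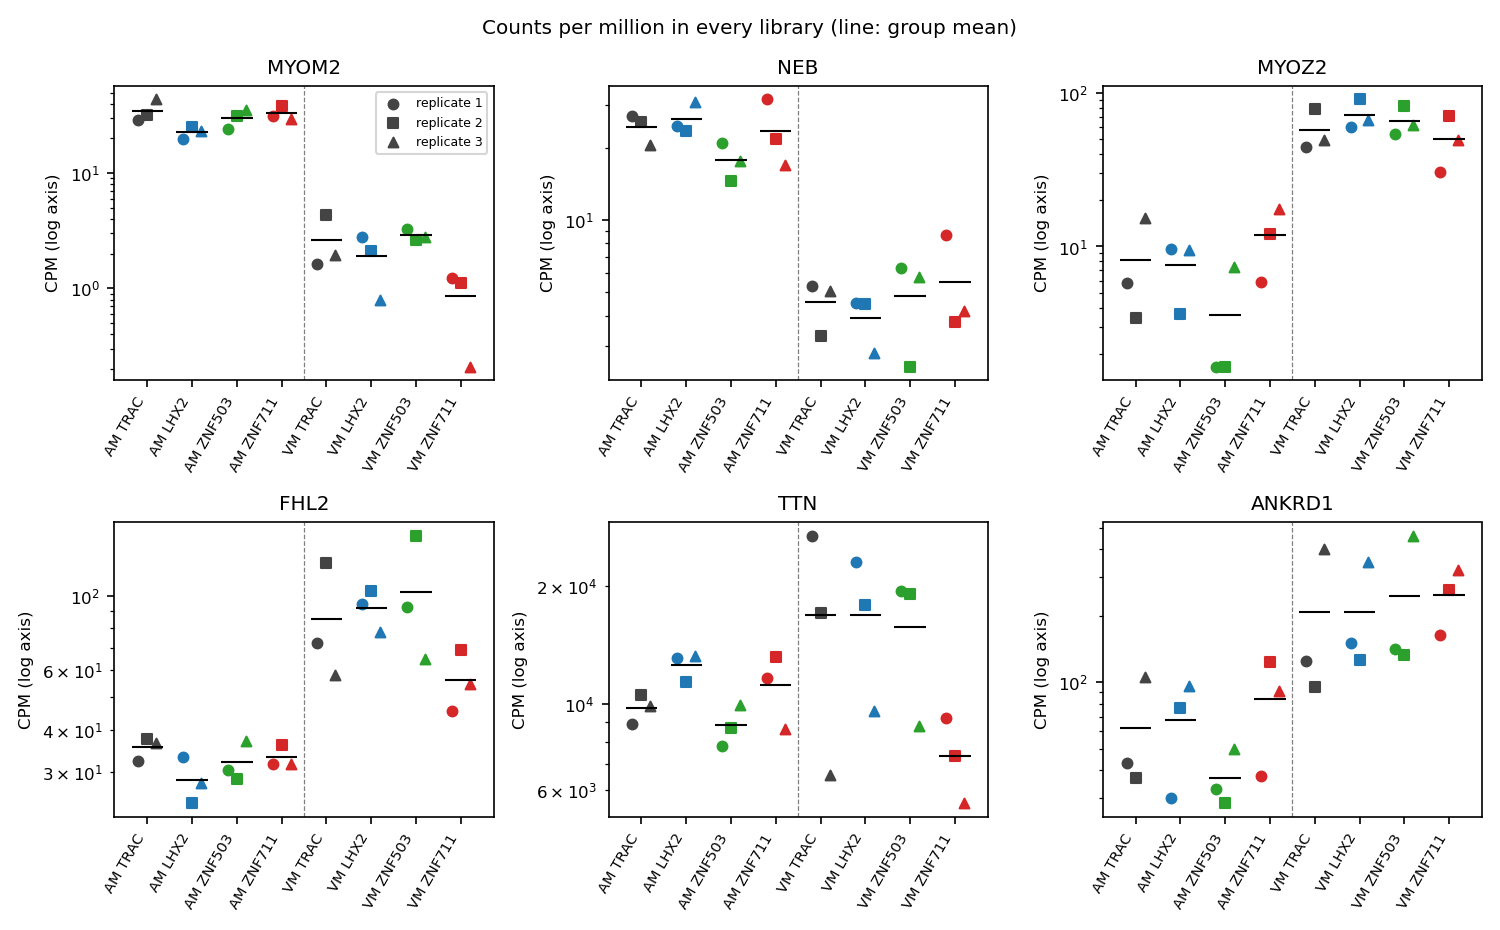
CPM (log axis) of MYOM2, NEB, MYOZ2, FHL2, TTN and ANKRD1 in each library, by group, with replicate 1 as circles, 2 as squares and 3 as triangles and the group mean as a line. The AM and VM libraries do not overlap for MYOM2, NEB, MYOZ2 and FHL2, whereas TTN is lowest and ANKRD1 highest in replicate 3 of each VM group.

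In LHX2, 2 members rose and 13 fell of 38, where 8.56% of all genes were called (4.68% higher, 3.88% lower). The members' median was -0.77. In ZNF503, 2 rose and 18 fell, where 8.86% were called (4.77% higher, 4.10% lower), and the median was -0.94. In all 3 of TRAC, LHX2 and ZNF503 the same 12 members were called lower: ACTN2, FHL2, FLNC, HSPB7, LDB3, LMOD2, MYOZ2, NEBL, NEXN, SMYD1, TMOD1 and XIRP1. The share of all genes called lower in all 3 is not given, but it cannot exceed the 3.88% called lower in LHX2. Same-numbered replicates of these groups deviated together, so the 3 comparisons are not independent repeats. With a replicate block within each protocol, 25 members were called in LHX2 (2 higher and 23 lower), with 12.2% of all genes.

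In ZNF711, 7 members rose in AM and 1 fell, where 13.2% of all genes were called (6.81% higher, 6.42% lower), and the median was 0.21. The 7 were MYOM2, NEB, MYPN, MYOM1, ACTC1, UNC45B and TPM1, and the 1 was MYOZ2. Adding a replicate block, 13 members were called (8 higher and 5 lower), with 23.4% of all genes. DESeq2 called 13 (10 higher and 3 lower), with 14.4% of all genes given an adjusted p.

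Without replicate 3 in every group, 19 members were called in TRAC (3 higher and 16 lower, with 8.72% of all genes) and 22 in LHX2 (2 higher and 20 lower, with 7.47%). There were 28 in ZNF503 (2 higher and 26 lower, with 7.99%) and 10 in ZNF711 (8 higher and 2 lower, with 9.32%). The members' median was then -0.77 in TRAC, -1.20 in LHX2, -1.21 in ZNF503 and 0.19 in ZNF711.

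The mean level of the 8 cardiac genes outside the members differed in the same direction as the members' median in each target, but least in TRAC. Of the 8 cardiac genes, 1 fell in TRAC (11.3% of all genes called), 3 in LHX2 (8.56%) and 4 in ZNF503 (8.86%), and 1 rose in each. In ZNF711, 2 rose (13.2% of all genes called). Their mean log2 level differed between AM and VM by -0.18 in TRAC, -0.54 in LHX2, -0.64 in ZNF503 and 0.68 in ZNF711. Relative to that mean, the members' median difference was -0.35 in TRAC, -0.19 in LHX2, -0.25 in ZNF503 and -0.49 in ZNF711, so in ZNF711 the median turned below 0, with 30 of 38 members below 0. Relative to the 11 myosins and troponins, the medians were 0.37, 0.57 and 0.62 in TRAC, LHX2 and ZNF503 and -0.03 in ZNF711. The direction of the median thus depended on the genes it was set against, and TNNT2, TNNC1 and TNNI1 stand in both reference lists. Of the 11 myosins and troponins, 10 had fitted AM against VM differences below 0 in TRAC. That list holds MYH7 and MYL2, which averaged 53.6 and 0.06 CPM in AM TRAC and 550 and 2.58 CPM in VM TRAC. The part of these 2 genes in the sign of the medians was not tested.

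Leaving out 1 library changed some of these calls, and the share of all genes called is not given for these fits. In TRAC, dropping AM TRAC replicate 1 left 9 called members, and dropping AM TRAC replicate 2 also left 9 (2 higher and 7 lower each time), of 14 with all libraries. TMOD1 lost its TRAC call without AM TRAC replicate 1, 2 or 3 or VM TRAC replicate 1 or 2 (log2 fold changes from -1.05 to -0.67). LMOD2 lost its TRAC call without AM TRAC replicate 1 or 2 or VM TRAC replicate 3 (log2 fold changes from -2.04 to -1.43). ACTN2 lost its TRAC call without AM TRAC replicate 1 or 2 or VM TRAC replicate 2 (log2 fold changes from -0.79 to -0.74). LDB3 lost its TRAC call without AM TRAC replicate 1 or 2 or VM TRAC replicate 1 or 2 (log2 fold changes from -1.56 to -1.34). SMYD1 lost its TRAC call without AM TRAC replicate 1 or 2 or VM TRAC replicate 2 (log2 fold changes from -0.95 to -0.67).

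The calls in the other targets also rested in part on single libraries. NEBL lost its LHX2 call without AM LHX2 replicate 1 or 2 or VM LHX2 replicate 1 or 2 (log2 fold changes from -0.84 to -0.74). TMOD1 lost its LHX2 call without VM LHX2 replicate 2 (log2 fold change -0.98). LMOD2 lost its LHX2 call without AM LHX2 replicate 1, 2 or 3 or VM LHX2 replicate 2 (log2 fold changes from -2.0 to -1.52). ACTN2 lost its LHX2 call without AM LHX2 replicate 1 or 2 (log2 fold changes from -0.82 to -0.71). LDB3 lost its LHX2 call without AM LHX2 replicate 1 or 2 or VM LHX2 replicate 1 or 2 (log2 fold changes from -1.43 to -1.28). CRYAB lost its LHX2 call without AM LHX2 replicate 1 or 2 or VM LHX2 replicate 2 (log2 fold changes from -1.60 to -1.35). LMOD2 lost its ZNF503 call without AM ZNF503 replicate 2 or VM ZNF503 replicate 2 (log2 fold changes from -1.83 to -1.81). CSRP3 lost its ZNF503 call without AM ZNF503 replicate 1 or 2 or VM ZNF503 replicate 2 or 3 (log2 fold changes from -1.20 to -0.87). ANKRD1 lost its ZNF503 call without AM ZNF503 replicate 1, 2 or 3 or VM ZNF503 replicate 3 (log2 fold changes from -3.0 to -1.90). CRYAB lost its ZNF503 call without AM ZNF503 replicate 1 or 2 (log2 fold changes from -1.57 to -1.56). TRIM54 lost its ZNF503 call without 1 of 13 libraries (log2 fold changes from -1.65 to -1.23). TRIM55 lost its ZNF503 call without 1 of 11 libraries (log2 fold changes from -1.0 to -0.80).

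In ZNF711, 5 members were called (4 higher and 1 lower) without VM ZNF711 replicate 3. ACTC1 lost its ZNF711 call without AM ZNF711 replicate 2 or VM ZNF711 replicate 1 or 3 (log2 fold changes from 1.04 to 1.16). TPM1 lost its ZNF711 call without VM ZNF711 replicate 3 (log2 fold change 0.65). MYOM1 lost its ZNF711 call without VM ZNF711 replicate 3 (log2 fold change 1.14). MYOZ2 lost its ZNF711 call without AM ZNF711 replicate 1 or 2 or VM ZNF711 replicate 2 (log2 fold changes from -2.11 to -1.76).

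Whether each target changed the members was asked within each condition. Against TRAC, the fit without a block called no member in AM or VM for LHX2, ZNF503 or ZNF711. At most 0.0169% of all genes were called there (VM ZNF711, 3 genes, all higher), and 0% in the other 5 comparisons. At an unadjusted p below 0.05, edgeR gave 1 member in AM LHX2, 1 in AM ZNF503, 5 in AM ZNF711, 0 in VM LHX2, 0 in VM ZNF503 and 22 in VM ZNF711. At that threshold the share of all genes was 7.74%, 1.74%, 3.49%, 2.61%, 1.55% and 9.40% in the same order. DESeq2 called 0 members in each of these 6 comparisons. The ZNF711 values lay on opposite sides of 0 in the 2 conditions. In VM, 31 of 38 members were below 0 with a median of -0.55, and in AM 32 of 38 were above 0 with a median of 0.36. This was not particular to ZNF711. ZNF503 values went the other way, with 34 of 38 below 0 in AM (median -0.21) and 32 above 0 in VM (median 0.13). For LHX2, 22 of 38 were below 0 in AM (median -0.07) and 29 above 0 in VM (median 0.14).

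TTN was a log2 fold change of -1.20 ± 0.37 (SE), edgeR adjusted p = 0.28 in VM ZNF711 against VM TRAC. LDB3 was -1.19 ± 0.42 (edgeR adjusted p = 0.35), MYBPC3 -0.95 ± 0.33 (edgeR adjusted p = 0.329), MYOM1 -0.89 ± 0.31 (edgeR adjusted p = 0.326) and ACTC1 -0.70 ± 0.30 (edgeR adjusted p = 0.468). None of these passed the test. Under a replicate block within each protocol they did: TTN was at -1.01 (edgeR adjusted p = 0.0125), LDB3 at -1.08 (0.024), MYBPC3 at -0.89 (0.0275), MYOM1 at -0.80 (0.00101) and ACTC1 at -0.66 (0.0208). Without VM TRAC replicate 3, edgeR called 9 members, all lower, among them TTN at -1.59 (edgeR adjusted p = 0.0118). The share of all genes called in that fit is not given. Without replicate 3 in every group it called 14 (1 higher and 13 lower, with 4.97% of all genes). Adding a replicate block, it called 1 member, higher (with 2.27% of all genes), and with a block within each protocol 20 (1 higher and 19 lower, with 8.38% of all genes).

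Sums over cardiac genes and over markers of other cell types are given for this comparison. The 8 cardiac genes summed to 3957, 4496 and 2019 CPM in VM TRAC and 1869, 2219.9 and 1650.3 in VM ZNF711, and the members' median difference was 0.21 when taken relative to them and 0.11 relative to the myosins and troponins. Cell cycle markers summed to 261, 249 and 335 CPM in VM TRAC and 534, 567 and 434 in VM ZNF711, and the endoderm sums are given above. Pluripotency markers summed to 184, 175 and 306 CPM in VM TRAC and 429, 472 and 396 in VM ZNF711. Fibroblast markers gave 1969.7, 1754 and 4969 against 4105, 3978 and 4550.1, and epicardial markers 284, 355 and 667 against 441, 559 and 643. The fitted differences were above 0 for 8 of 8 cell cycle, 10 of 10 endoderm, 7 of 7 epicardial, 9 of 10 fibroblast and 4 of 5 pluripotency markers tested, and none of these was called. TCF21 stands in both the fibroblast and epicardial lists. Of 5 neural markers tested, 3 were above 0 and 1 was called, higher, with log2 fold changes of the list up to 4.19. Smooth muscle (4 of 8 above 0) and endothelial markers (3 of 8) had no call. The part of all these markers in the result was not tested.

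The test of whether the ZNF711 difference itself differed between AM and VM called no member, where 0.00564% of all genes were called. At an unadjusted p below 0.05, edgeR gave 21 members for ZNF711 (6.40% of all genes), 0 for LHX2 (3.72%) and 1 for ZNF503 (1.95%). After adjustment 0% of all genes were called for LHX2 and for ZNF503. DESeq2 called 0 members in all 3 of these tests. For ZNF711, 34 of 38 members were above 0, with a median of 0.95. For ZNF503, 36 of 38 were below 0 (median -0.36), and for LHX2 27 of 38 were below 0 (median -0.26). All of these contrasts share the TRAC libraries. LDB3 was a log2 fold change of 1.75 ± 0.60 (SE), edgeR adjusted p = 0.607 and MYBPC3 1.48 ± 0.46 (edgeR adjusted p = 0.532). Under a block within each protocol 14 members were called, all higher (2.54% of all genes), with LDB3 at 1.70 (edgeR adjusted p = 0.0321) and MYBPC3 at 1.46 (0.0297), and without replicate 3 in every group also 14, all higher (1.61%).

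**Figure D4:**
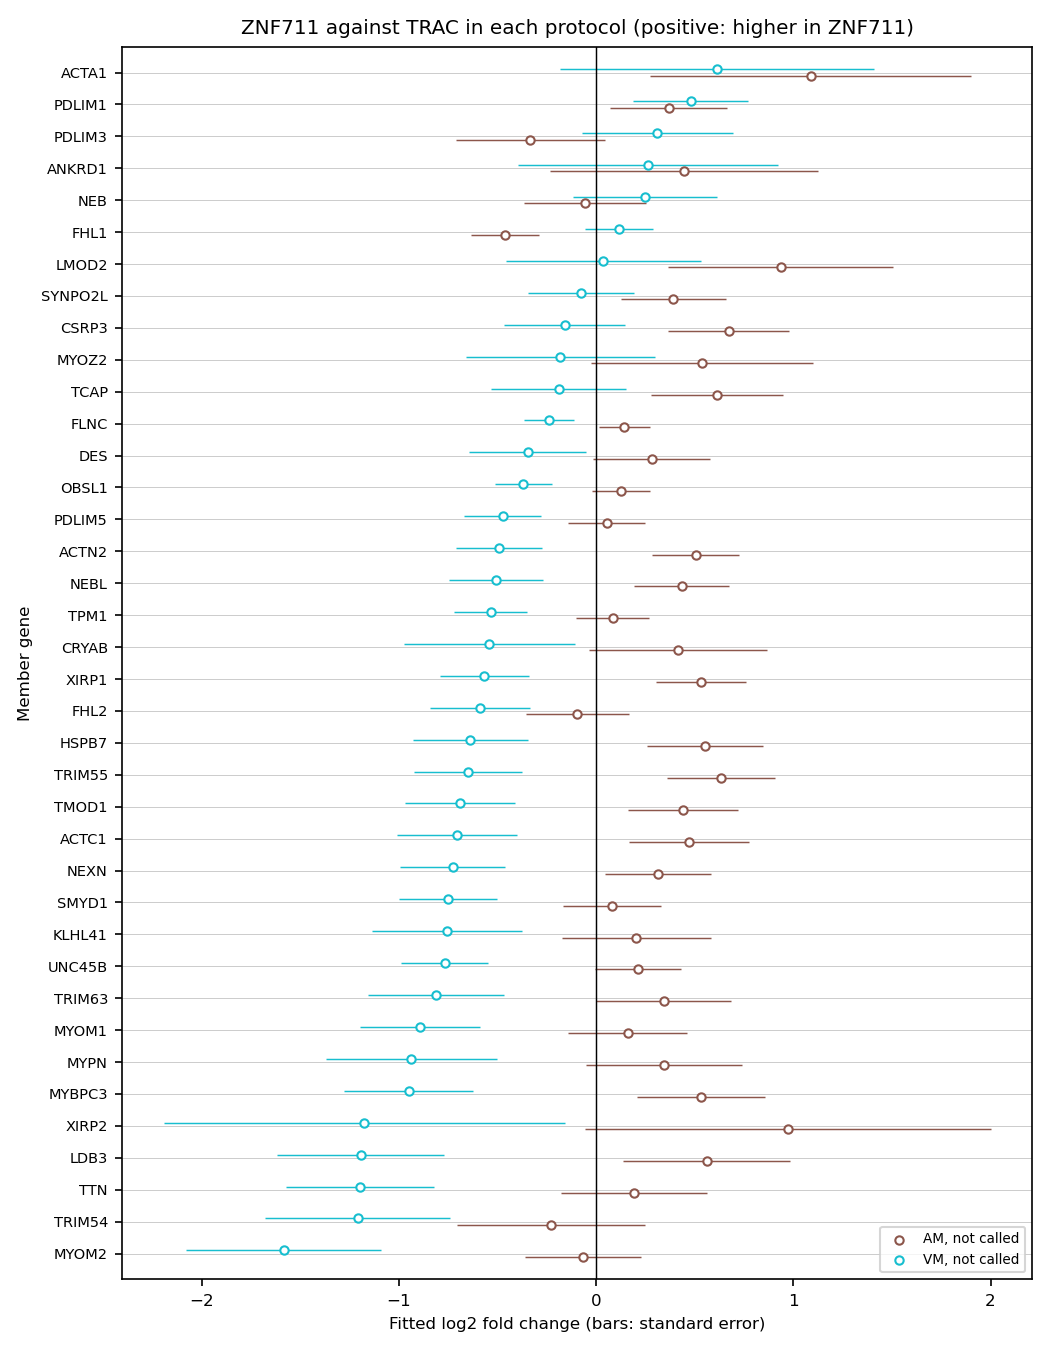
Fitted log2 fold change of ZNF711 against TRAC (horizontal axis, bars: standard error) for each tested member (vertical axis, ordered by the VM value), in AM and in VM. No point was called in the fit without a replicate block, 31 of 38 VM values lie below 0 and 32 of 38 AM values lie above 0.

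Within VM, some members fell in replicate 3 and others rose. The log2 difference of replicate 3 from the mean of replicates 1 and 2 in TRAC was -1.70 for TTN, -1.57 for TRIM54, -1.55 for LDB3, -1.26 for MYOM1 and -1.07 for MYBPC3. It was 2.86 for ACTA1, 1.87 for ANKRD1, 1.37 for PDLIM3 and 0.89 for PDLIM1. ACTA1, ANKRD1, PDLIM3, PDLIM1 and FHL1 were above 0 in all 4 targets, and TTN, LDB3, MYOM1 and MYBPC3 below 0 in all 4. These are descriptions of single libraries with no test, and the endoderm sums above moved with them.

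Other genes of the muscle cytoskeleton and its regulators were tested on the same table. In TRAC, where 11.3% of all genes tested were called, 3 of 33 further Z-disc and costamere genes tested rose in AM and 4 fell. They include SGCD, a sarcoglycan of the membrane complex (a log2 fold change of 5.07 ± 0.75 (SE), edgeR adjusted p = 4.40e-05), and ACTN3, the fast skeletal alpha-actinin (-2.89 ± 0.24, edgeR adjusted p = 9.00e-09). SGCD averaged 14.9 CPM in AM TRAC and 0.40 CPM in VM TRAC, so the size of its change rests on a very low VM level. Among 11 myosins and troponins, 1 rose and 3 fell in TRAC, with MYL2, the ventricular light chain, at -5.00 ± 1.07 (edgeR adjusted p = 0.00393). Among 14 regulators, 2 rose and 2 fell in TRAC, with TBX20 at -2.47 ± 0.32 (edgeR adjusted p = 1.93e-05) and TBX5 at 1.18 ± 0.21 (edgeR adjusted p = 0.000346). In ZNF711, where 13.2% of all genes were called, 5 regulators rose and none fell, with MEF2C at 1.17 ± 0.19 (edgeR adjusted p = 0.000111). Markers of other cell types moved between the conditions in TRAC too. In AM, 4 of 10 fibroblast, 4 of 8 endothelial, 3 of 8 smooth muscle, 3 of 7 epicardial and 1 of 5 neural markers tested were called higher and none lower. Fitted values were below 0 for 4 of the 7 epicardial and 4 of the 8 smooth muscle markers, and TCF21 stands in both the fibroblast and epicardial lists. The epicardial sum averaged 363 CPM in AM TRAC and 435 in VM TRAC, and the smooth muscle sum 1286 and 702. Of 10 endoderm markers 5 fell and 1 rose, 3 of 5 pluripotency markers fell, and 0 of 8 cell cycle markers were called. Fibroblast markers summed to 5776, 6678 and 7100.1 CPM in AM TRAC and 1969.7, 1754 and 4969 in VM TRAC, and the part of these markers in the members' differences was not tested.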

How the data were processed

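Bulk RNA was measured in 24 libraries, and the values used were the authors' deposited raw gene counts, per the file headers 1 column per library, with 0 columns unmatched and 0 entries that named no gene. Per the submitters' processing notes the genome was GRCh38 and the tools included STAR. The counting program, strand setting and annotation release are not given in the sources used here, and the labels give both polyA RNA and ribosomal RNA depletion.

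Symbols were matched for 62639 of 62757 genes, and exon lengths and positions came from GENCODE 29. Genes were filtered with filterByExpr (17724 tested), scaled by the trimmed mean of M values (factors 0.905 to 1.08) and fitted with edgeR 4.0.16 (quasi-likelihood, robust) with 1 mean per group over all 24 libraries. The biological coefficient of variation was 25% with 16 residual degrees of freedom. Benjamini-Hochberg adjustment covered the tested genes, separately for each of the 13 comparisons, with a threshold of 0.05. On counts simulated for AM TRAC against VM TRAC (16726 genes tested), the fit called 24 of 100 genes changed by 1 on the log2 scale, 90 of 100 changed by 2, and 4 of 16532 unchanged genes. These counts were drawn independently, with the same spread for every gene, the same mean profile in every group and no replicate effect. The deposited counts differ from this in their shared replicate deviations, so these rates need not hold for the reported tests. DESeq2 1.42.0 was an alternative. Levels relative to other genes used log2 (CPM + 0.5). Intervals on single counts are not given, since all comparisons rest on replicate spread.

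Same-numbered replicates deviated together. Over 11428 genes the correlations of their deviations from the group means were 0.12 to 0.79 in 10 pairs of groups. The reported fit has no block, so its adjusted p-values do not use this pairing. A replicate block, over all groups or within each protocol, was an alternative. The members and lists were chosen with earlier results of these data known. Values are given per library for a fixed set of members (TTN, ACTC1, ACTA1, NEB, NEBL, MYBPC3, MYBPC1, MYOM1, MYOM2, MYOM3, ACTN2, DES, FHL2, ANKRD1, CRYAB) and for called members among the 5 largest changes of a comparison. Of other lists, genes were named if called and among the 3 largest changes of the list.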

Additional observations from a re-analysis of the deposited data

How the results depend on the processing

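Of 57 called member values, 51 kept their call under each of 9 alternatives, and 21 lost it without at least 1 of the 24 libraries. No called member value changed its sign in any of these fits, nor did any other fitted member value printed here. Over all tested members and comparisons, 1.85% of the values changed sign under the 9 alternatives and 3.05% without 1 library, none of them a called value. Scaling by size factors or library size alone kept every count of called members within 1.5 times.

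Without a filter on low counts, 22 members were called between AM and VM in TRAC (5.87% of all genes) and 14 in ZNF711 (6.57%). There were 13 in VM ZNF711 against VM TRAC (1.27%) and 13 in the ZNF711 interaction (0.538%). DESeq2 called 13 between AM and VM in ZNF711 (14.4%). A replicate block gave 13 in that comparison (23.4%) and 1 in VM ZNF711 against VM TRAC (2.27%). With a replicate block within each protocol, the counts were 25 between AM and VM in LHX2 (12.2%) and 1 in AM LHX2 against AM TRAC (3.11%). In the same fit they were 20 in VM ZNF711 against VM TRAC (8.38%) and 14 in the ZNF711 interaction (2.54%). Without replicate 3 in every group they were 2 in AM ZNF711 against AM TRAC (0.233%), 14 in VM ZNF711 against VM TRAC (4.97%) and 14 in the ZNF711 interaction (1.61%). The cause of these differences was not tested. Of the member values printed with a fitted p, the block changed the calls of LMOD2, TRIM55, ANKRD1, CRYAB, TTN, FHL2 and FLNC between AM and VM and calls of the ZNF711 contrasts against TRAC, and no others. Between AM and VM in ZNF711, FHL2 passed the threshold under 6 of the 9 alternatives and FLNC under 2.

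With each library left out in turn, there were 9 to 18 called members between AM and VM in TRAC, 10 to 18 in LHX2, 14 to 22 in ZNF503 and 5 to 10 in ZNF711. There were 0 to 9 in VM ZNF711 against VM TRAC, with 9 without VM TRAC replicate 3, and 0 in the other contrasts against TRAC and in the interactions. The share of all genes called was not set beside these counts. From these counts alone, a change in the members cannot be told from a change in calling over all genes.

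Depth limits the low members: MYBPC1, LMOD3 and MYOM3 held too few counts to test, and MYOM2 in VM, LMOD2 and ACTA1 rest on few counts per library. NEB and TMOD1 share exons with genes of the other strand.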
